A study of Mus musculus with 4 samples.

Results

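The 41 genes described here encode the transcription factor NRF2 (Nfe2l2), its repressor KEAP1 and the enzymes, carriers and storage proteins of antioxidant defence. They were chosen by name from the glutathione, thioredoxin, peroxiredoxin, superoxide dismutase, NADPH, glutathione S-transferase and ferritin systems, by a rule that names genes and uses no measured value, although earlier results of these data were known when it was written. Each of the 41 symbols matched 1 of the 56748 genes in the count table, and all 41 were among the 15167 genes that passed the filter on low counts. Lungs carrying metastases of 4T1, a mouse triple-negative breast cancer line, were compared after cmLumiOpto/PARPi and after saline by bulk RNA sequencing of poly(A) RNA, with 2 libraries from different mice in each group.

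All mice were female BALB/cJ animals, 7 weeks old when firefly luciferase-expressing 4T1 cells were injected into the tail vein. Control mice received saline (given as PBS control in the sample labels). Treated mice received cmLumiOpto, a light-gated mitochondrial channel and luciferase expressed from the cfos promoter and delivered by exosome-coated AAV carrying a CD276 antibody, with the luciferase substrate ViviRen (2 mg per kg) and the PARP inhibitor olaparib (50 mg per kg), for 3 weeks. No library of either agent alone was analysed here, so the effects of cmLumiOpto and olaparib cannot be told apart. The metastases were seeded by intravenous injection rather than from a primary tumour. The labels name harvested tumour cells while the study's methods name lung tissue with metastasis, and the libraries held RNA of lung cells as described below.

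NRF2 is held in the cytoplasm by KEAP1, which presents it to a ubiquitin ligase for degradation. Oxidants and electrophiles modify cysteines of KEAP1, NRF2 then accumulates and, paired with a small MAF protein, binds antioxidant response elements near its target genes. The targets make glutathione, reduce thioredoxin, regenerate NADPH and detoxify quinones and haem, whereas many peroxidases and superoxide dismutases are also made constitutively in lung cells and red blood cells.

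The core of the antioxidant response element was searched as TGACNNNGC on both strands in RefSeq promoters (assembly GRCm38.p6), each covering 250 bases before to 50 bases after a transcription start. Of the 41 genes, 35 had a promoter in that collection, and the letters were found for 10 of them (28.6%), against 1856 of the 11022 tested genes with a promoter (16.8%). Counted by promoter, 22.2% of the members' 45 promoters held the letters, against 14.2% of the 14054 promoters of all tested genes. Hmox1, Gclc, Gsr, Prdx6, Sod3 and Gsta4 had no entry. The windows of 6 genes are shown, 3 from genes known as inducible NRF2 targets and 3 from genes that were higher in both treated libraries, so that motifs and values can be set side by side. The match is in capitals, 10 bases are given on each side, and each window is written 5′ to 3′ on the strand that holds the match.
Gclm, chr3:122245413-122245441, minus strand: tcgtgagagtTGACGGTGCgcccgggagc
Txnrd1, chr10:82859104-82859132, minus strand: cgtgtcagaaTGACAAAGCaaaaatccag
Me1, chr9:86695902-86695930, minus strand: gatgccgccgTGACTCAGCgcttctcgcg
Prdx1, chr4:116685456-116685484, minus strand: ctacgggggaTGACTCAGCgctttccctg
Sod1, chr16:90220696-90220724, minus strand: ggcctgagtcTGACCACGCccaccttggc
Mgst1, chr6:138140461-138140489, minus strand: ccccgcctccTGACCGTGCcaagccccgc
Prdx1 and Me1 held the same 9 letters, which also contain the AP-1 site TGACTCA. The other matches were in the promoters of Nfe2l2, Srxn1, Pgd and G6pdx. A match is a description of the letters and not evidence of binding. Bases further from the start were not searched, so the lack of a match, as for Nqo1 and Slc7a11, does not show that an element is absent.

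The libraries held 15263375 to 16755228 counts, and 3 counts corresponded to 0.179 to 0.197 CPM (counts per 1000000 counts of a library). Levels are CPM scaled by the trimmed mean of M values (TMM), in the order saline 1, saline 2, treated 1, treated 2. The summed level of 7 alveolar type 2 cell markers was 1642.0, 446, 8055.7 and 2873.4 CPM, and that of 8 airway club and ciliated cell markers was 1511.7, 463, 6046.0 and 3427.7 CPM. The sum of 6 fibroblast markers was 3504.4 to 5087.4 CPM in saline and 1633.7 to 1840.7 CPM after treatment. The sum of 6 epithelial markers of 4T1 tumour was 2352.0 to 3445.4 CPM with overlapping groups. These 6 are general epithelial genes that lung epithelium can also express, so their sum does not measure the share of tumour. None of the markers in the 12 lists was at 0 in all 4 libraries. The lung epithelial sums were thus lowest in saline 2 and highest in treated 1. They rested largely on Sftpc (6153.2 CPM in treated 1) and Scgb1a1 (5304.5 CPM in treated 1). By gene, 6 of 7 type 2 and 7 of 8 airway markers were higher in both treated libraries, against 27.4% of all tested genes. Abca3 was lower in both and Tubb4b overlapped. In bulk RNA fewer cells of a type and less RNA per cell cannot be told apart. Whether these differences had a part in the values below was not tested.

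**Figure D1:**
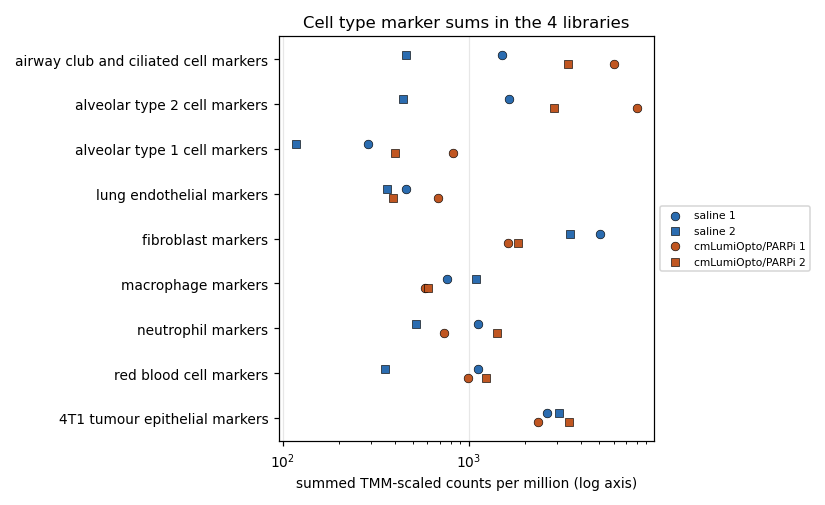
Summed TMM-scaled CPM (log axis) of 9 cell type marker lists in the 2 saline (blue) and 2 cmLumiOpto/PARPi (orange) libraries, 1 point per library. Airway and alveolar sums lie higher and fibroblast sums lower in both treated libraries. The sums of the 4T1 tumour epithelial markers, which are not particular to tumour, overlap.

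The levels of 4 of 5 glutathione peroxidases, 5 of 6 peroxiredoxins and 4 of 5 glutathione S-transferases were higher in both treated libraries. No member passed the test. Of the 12 genes set apart by name as inducible NRF2 targets, 10 overlapped between the groups, against 6801 of the 15167 tested genes. Of the 41 genes, 21 (51.2%) were higher in both treated libraries than in both saline libraries, against 27.4% of all tested genes, and 2 (4.88%), Keap1 and Slc7a11, were lower in both, against 27.8% of all tested genes. The other 18 overlapped. Differences were modest, with a median log2 fold change (treated minus saline) of 0.24 and a range of −1.07 (Slc7a11) to 1.27 (Hmox1), against a median of 0.02 over all tested genes. Short genes were more often higher after treatment over the whole table, and values that allow for gene length are given below.

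No member reached an adjusted p under 0.05 in the edgeR quasi-likelihood test, nor did any of the 15167 genes (0%). The smallest adjusted p among the members was 0.138 (Gpx4). At an unadjusted p under 0.05, 9 members were higher, against 9.21% of all tested genes, and 0 were lower, against 12.0%. The 9 were Gpx1, Gpx3, Gpx4, Prdx1, Prdx5, Sod1, Sod3, Gstm1 and Mgst1. DESeq2 called 4 members higher at an adjusted p under 0.05 (Gpx3, Gpx4, Sod3 and Mgst1), against 2.17% of the 14586 genes it tested, and 0 lower, against 4.45%. The p-values set each group difference against a spread estimated from 2 libraries per group, with information shared over genes. That spread comes from these samples only.

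**Figure D2:**
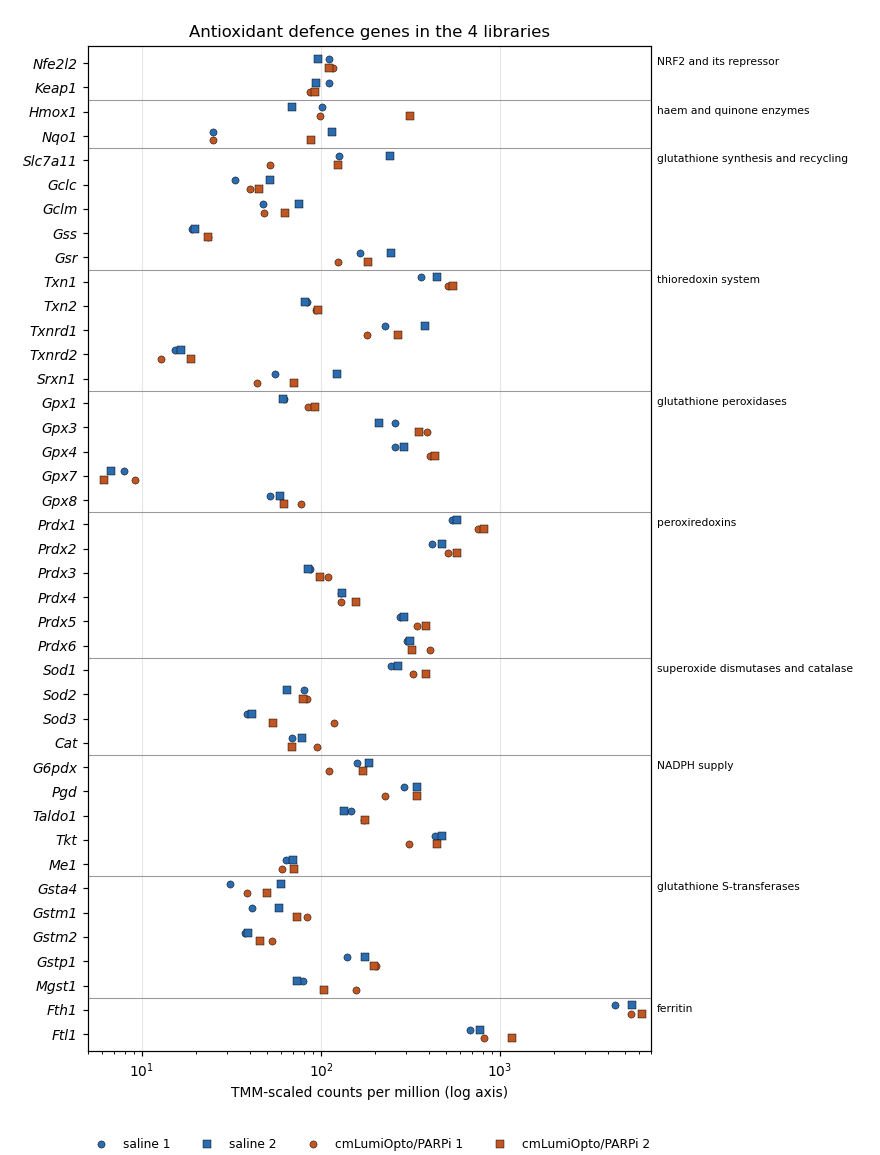
TMM-scaled CPM (log axis) of all 41 genes, ordered by role, with 1 point per library (blue saline, orange cmLumiOpto/PARPi, circles sample 1, squares sample 2). Both orange points lie to the right of both blue points for 21 genes and to the left for Keap1 and Slc7a11.

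NRF2 and KEAP1 themselves differed little. Nfe2l2 was at 110.5 and 96.9 CPM in saline and 117 and 111 CPM after treatment. Its log2 fold change was 0.14 ± 0.14 (SE; edgeR adjusted p = 0.586), and both treated libraries were above both saline libraries, treated 2 barely so. Keap1 was at 111 and 94.0 CPM in saline and at 86.5 and 92.1 CPM after treatment, and its log2 fold change was −0.20 ± 0.14 (adjusted p = 0.453). Treated 2 lay just below saline 2. Counts of Keap1 may include reads of the overlapping antisense gene Gm16754, with which it shares 4.58% of its 100-base stretches. NRF2 is controlled mainly through protein stability, which mRNA levels do not show.

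The haem and quinone enzymes were spread widely between mice of the same group. Hmox1, haem oxygenase 1, which opens the haem ring and releases iron, was at 101 and 69.3 CPM in saline and at 98.6 and 313 CPM after treatment. Only treated 2 was above the saline libraries, and the log2 fold change, 1.27 ± 0.53 (adjusted p = 0.243), was 0.19 without that library. Red blood cell markers summed to 1116.1, 357, 991 and 1241.0 CPM and macrophage markers to 764, 1090.9, 584 and 604 CPM. The red blood cell, neutrophil, 4T1 tumour and heart muscle sums were highest in treated 2, and the macrophage sum in saline 2. Genes within a list differed, as Hba-a1 was highest in saline 1 (419 CPM) and Cd68 in treated 2 (109 CPM). Whether any cell type had a part in the level of Hmox1 was not tested. Nqo1, the quinone reductase often used as a readout of NRF2, was at 25 and 116 CPM in saline and at 25.1 and 87.7 CPM after treatment. Both groups therefore held 1 low and 1 high library, and the log2 fold change was −0.32 ± 0.81 (adjusted p = 0.849). It was 1.16 without saline 2 and 0.32 without treated 1, with the sign turned, and −1.05 without saline 1 and −1.50 without treated 2.

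The spread of Nqo1 stood out in both groups. The saline libraries differed 4.63-fold, and 0.376% of the tested genes differed at least as much between them. The treated libraries differed 3.49-fold, a gap that 1.25% of the genes reached. For Hmox1 the treated libraries differed 3.17-fold, reached by 1.64% of the genes.

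Glutathione is made from cysteine, glutamate and glycine, and its synthesis genes were without a common direction. Slc7a11, the cystine/glutamate antiporter that supplies the cysteine, was at 127 and 242 CPM in saline and at 51.9 and 124 CPM after treatment. Its log2 fold change of −1.07 ± 0.47 (adjusted p = 0.263) was the lowest of the members, although treated 2 and saline 1 were almost level. Slc7a11 is also the longest member, and with the gene length offset its log2 fold change was −0.68, the groups overlapped and Srxn1 was lower at −0.78. Without the offset, the value was −0.54 without saline 2, −0.57 without treated 1 and −1.85 without treated 2. Gclc, the catalytic subunit of glutamate-cysteine ligase, was at 33.2, 51.9, 40.0 and 45.1 CPM in the 4 libraries, with the treated libraries between the saline ones (log2 fold change 0.00 ± 0.24, adjusted p = 0.997). Gclm, the modifier subunit of the same enzyme, was at 47.2, 75.6, 48.1 and 62.9 CPM, again with both treated libraries inside the saline range (log2 fold change −0.14 ± 0.26, adjusted p = 0.779).

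The 2 remaining genes of the glutathione group lay on opposite sides. Gss, glutathione synthetase, was at 19.1 and 19.9 CPM in saline and at 23.4 CPM in both treated libraries, which did not overlap (log2 fold change 0.26 ± 0.17, adjusted p = 0.411). Gss overlaps genes on the other strand and shared 5.53% of its 100-base stretches with other genes, mostly Gssos1. Gsr, glutathione reductase, which restores reduced glutathione with NADPH, was at 166 and 245 CPM in saline and at 124 and 183 CPM after treatment, with treated 2 inside the saline range (log2 fold change −0.42, adjusted p = 0.399).

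In the thioredoxin system the thioredoxins were higher and the cytosolic reductase and sulfiredoxin were not. Txn1, cytosolic thioredoxin, was at 364 and 443 CPM in saline and at 515 and 550 CPM after treatment, without overlap (log2 fold change 0.40 ± 0.16, adjusted p = 0.237). Txn2, the mitochondrial thioredoxin, was also higher in both treated libraries, at 94.3 and 96.7 CPM against 83.7 and 81.7 CPM. Txnrd1, the selenoprotein that reduces thioredoxin 1, was at 228 and 383 CPM in saline and at 182 and 269 CPM after treatment, so that 1 treated library lay inside the saline range. Its log2 fold change of −0.44 ± 0.30 (adjusted p = 0.437) was −0.03 without saline 2, −0.18 without treated 1, −0.76 without treated 2 and −0.78 without saline 1.

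Srxn1, sulfiredoxin, reactivates over-oxidised peroxiredoxins and is a strongly inducible NRF2 target. It was at 55.4 and 123 CPM in saline and at 43.9 and 70.4 CPM after treatment. The groups overlapped, with the highest level in saline 2, and the log2 fold change of −0.64 ± 0.41 (adjusted p = 0.404) was 0.03 without saline 2. The mitochondrial reductase Txnrd2 was low, at 12.8 to 18.9 CPM over the 4 libraries, with both saline libraries inside the treated range.

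Among the genes named as glutathione peroxidases, 4 of 5 were higher in both treated libraries and the median log2 fold change was 0.52. The share higher in both was 27.4% over all tested genes and 47.9% over those shorter than 2000 bases, as all 5 peroxidase genes are, and with the gene length offset described below 3 of 5 were higher with a median of 0.23. Gpx4, the selenoenzyme that reduces lipid hydroperoxides in membranes and restrains ferroptosis, was at 258 and 291 CPM in saline and at 408 and 434 CPM after treatment. Both treated libraries were well above both saline libraries (log2 fold change 0.62 ± 0.15, 1.53-fold, adjusted p = 0.138). A share of 25.2% of its 100-base stretches also occurs in other genes, mostly the pseudogene Gpx4-ps2, so its counts are uncertain.

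Gpx1, the cytosolic peroxidase, was at 62.6 and 61.3 CPM in saline and at 85.0 and 92.2 CPM after treatment (log2 fold change 0.52 ± 0.13, adjusted p = 0.143). Gpx3, the secreted peroxidase, was at 261 and 211 CPM in saline and at 391 and 352 CPM after treatment (log2 fold change 0.66 ± 0.17, adjusted p = 0.145). For both, the difference between groups was larger than the gap within either group. Gpx8, of the endoplasmic reticulum, was at 52.1 and 59.4 CPM in saline and at 77.5 and 62.4 CPM after treatment, while Gpx7, also of the endoplasmic reticulum, overlapped at 6.14 to 9.15 CPM.

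**Figure D3:**
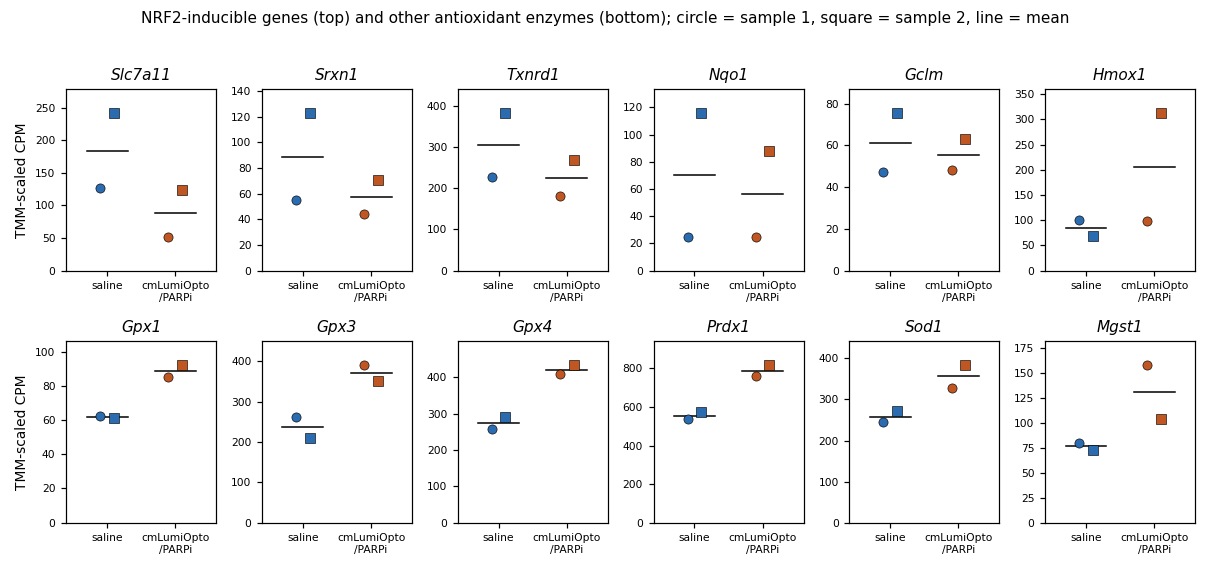
TMM-scaled CPM (linear axes from 0) of 6 of the 12 genes set apart as inducible NRF2 targets (top row) and 6 other antioxidant enzymes (bottom row) in saline (blue) and cmLumiOpto/PARPi (orange) lungs. Circles are sample 1, squares sample 2 and lines the mean of 2 libraries. The groups overlap in the top row except for Slc7a11 and do not overlap in the bottom row. The bottom genes are all among the 9 members higher at an unadjusted p under 0.05 in edgeR, and do not stand for the rest. Of the 27 members outside the 12, Nfe2l2 and Keap1, 8 overlapped.

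Peroxiredoxins reduce hydrogen peroxide through reactive cysteines, and 5 of 6 were higher in both treated libraries, with a median log2 fold change of 0.28 (3 of 6 and a median of 0.16 with the gene length offset, against 27.4% and 25.8% of all tested genes without and with it). Prdx1, the abundant cytosolic member, was at 537 and 573 CPM in saline and at 758 and 818 CPM after treatment (log2 fold change 0.51 ± 0.15, 1.42-fold, adjusted p = 0.166). It did not overlap, and neither did Prdx2, Prdx3, Prdx5 and Prdx6, whose log2 fold changes ran from 0.24 (Prdx6) to 0.36 (Prdx5). Prdx5, found in mitochondria and peroxisomes, shared 12.3% of its stretches with the adjacent Trmt112, and Prdx2 shared 6.15%, mostly with Junb. Prdx4, of the secretory pathway, was at 129 CPM in both sample 1 libraries and overlapped (log2 fold change 0.14).

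Superoxide dismutases turn superoxide into hydrogen peroxide, which catalase removes. Sod3, the extracellular form abundant in lung, was at 38.7 and 41 CPM in saline and at 118 and 53.9 CPM after treatment. The treated libraries were both higher but differed from each other by more than the lower one differed from saline. The log2 fold change of 1.11 ± 0.36 (adjusted p = 0.181) was 0.44 without treated 1 and 1.54 without treated 2.

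Sod1, the cytosolic copper-zinc enzyme, was at 245 and 271 CPM in saline and at 327 and 384 CPM after treatment, without overlap (log2 fold change 0.46 ± 0.16, adjusted p = 0.188). Sod2, the mitochondrial manganese enzyme, overlapped at 64.7 to 84.1 CPM. Cat was also without separation, at 68.7 to 95.5 CPM with the highest level in treated 1.

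NADPH supplies the electrons for glutathione and thioredoxin reductases, and its 5 genes showed no common difference (median log2 fold change −0.15). Taldo1, transaldolase of the pentose phosphate pathway, was at 147 and 135 CPM in saline and at 173 and 177 CPM after treatment. It was the single gene of the group without overlap (log2 fold change 0.31 ± 0.13, adjusted p = 0.246). Tkt, transketolase, was at 434 and 477 CPM in saline and at 309 and 443 CPM after treatment, with treated 2 inside the saline range and treated 1 well below it (log2 fold change −0.28 ± 0.21, adjusted p = 0.472). G6pdx, Pgd and Me1 had log2 fold changes of −0.28, −0.15 and −0.02 and overlapped, and the lowest of their 4 levels was in treated 1 for each. Me1 held the same 9 promoter letters as Prdx1 printed above, and its 4 levels of 63.8, 70.1, 60.5 and 71.1 CPM did not separate the groups.

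Glutathione S-transferases conjugate electrophiles to glutathione, and 4 of 5 were higher in both treated libraries (median log2 fold change 0.36). With the gene length offset 2 of 5 were higher and the median was 0.10, and the share over all tested genes was 27.4% without the offset and 25.8% with it. Mgst1, the microsomal enzyme with peroxidase activity towards lipids, was at 79.7 and 73.1 CPM in saline and at 158 and 104 CPM after treatment. The groups did not overlap, and treated 1 was highest (log2 fold change 0.77 ± 0.22, 1.71-fold, adjusted p = 0.158, and 0.44 without treated 1). Gstm1 was at 41.3 and 58.6 CPM in saline and at 83.9 and 73.3 CPM after treatment (log2 fold change 0.65 ± 0.20, adjusted p = 0.176). Gstm2 and Gstp1 were higher by log2 fold changes of 0.36 and 0.35 without overlap. Gstp1 shared 25.1% of its stretches, mostly with Gstp2, and Gstm1 5.86%, so their counts are uncertain. Gsta4, which conjugates the lipid peroxidation product 4-hydroxynonenal, was at 31.2, 60.2, 38.7 and 50.1 CPM, with both treated libraries between the saline ones (log2 fold change −0.04 ± 0.33, adjusted p = 0.956).

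Ferritin stores the iron that would otherwise feed peroxide chemistry. Ftl1, the light chain, was at 684 and 772 CPM in saline and at 819 and 1169.1 CPM after treatment, highest in treated 2 as for Hmox1 (log2 fold change 0.45 ± 0.22, adjusted p = 0.294). Its counts are uncertain, since 44.7% of its stretches recur in other genes, among them the pseudogene Ftl1-ps1. Fth1, the heavy chain, overlapped at 4368.3 to 6215.5 CPM. Per kilobase of gene length it had the highest level of the 41 genes, at 1421.1 CPM per kb in saline and 1673.3 after treatment. Ftl1 followed at 543 and 742 CPM per kb and Txn1 at 384 and 507, while Gss (3.29 and 3.95) and Txnrd2 (3.63 and 3.60) were lowest.

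**Figure D4:**
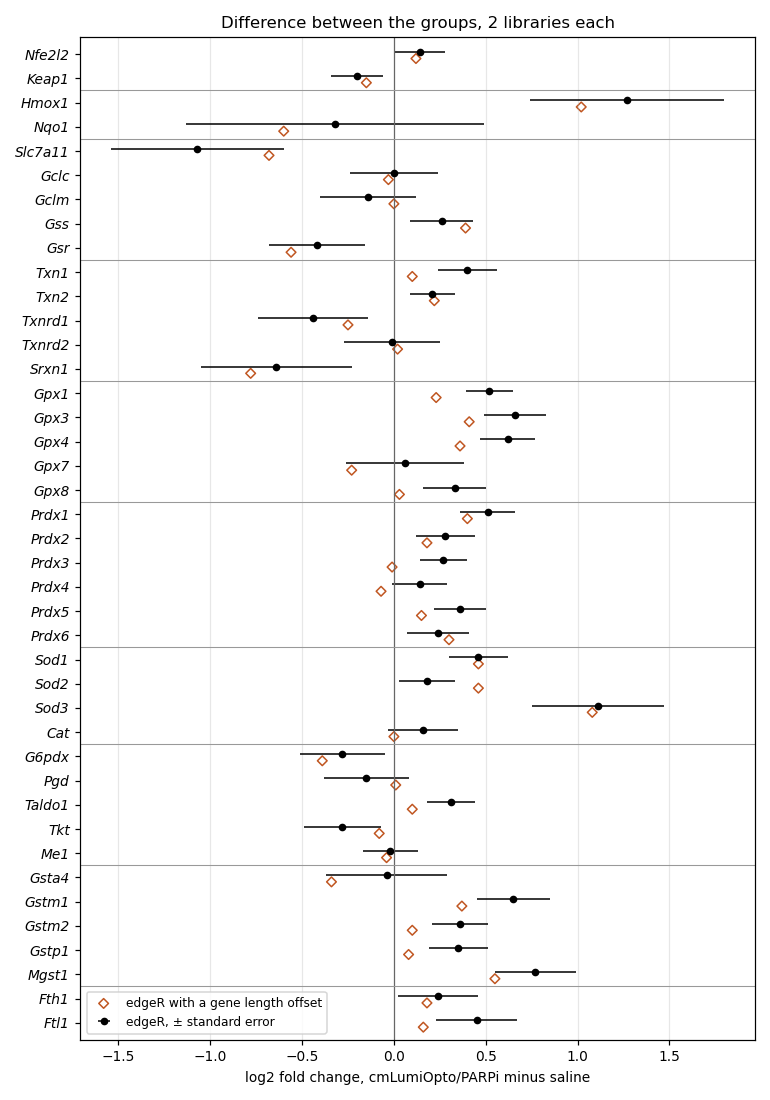
Log2 fold change (cmLumiOpto/PARPi minus saline) of the 41 genes from edgeR with its standard error (black, 2 libraries per group) and from the fit with a gene length offset (orange diamonds), ordered by role. Glutathione peroxidases and peroxiredoxins lie above 0 in black, and most of them move towards 0 with the offset.

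The 12 members set apart by name as inducible NRF2 targets (Hmox1, Nqo1, Gclc, Gclm, Txnrd1, Srxn1, Slc7a11, G6pdx, Pgd, Taldo1, Tkt and Me1) had a median log2 fold change of −0.21. Other members may be NRF2 targets too, so the split does not divide targets from non-targets. Of the 12, 1 was higher in both treated libraries (Taldo1) and 1 was lower in both (Slc7a11). The other 10 overlapped, against 6801 of the 15167 tested genes. None of the 12 had an unadjusted p under 0.05 in edgeR. The 27 members other than the 12, Nfe2l2 and Keap1 had a median of 0.33. Of the 27, 19 were higher in both treated libraries and 0 lower, against 27.4% and 27.8% of all tested genes. The inducible genes are longer, with a median length of 3807 bases against 2106, and with the gene length offset the medians were −0.06 and 0.18, with 1 of 12 and 13 of 27 higher in both. The difference between these sets was not tested. The letters searched in promoters were found for 6 of the 10 inducible genes with an entry (60.0%). They were found for 4 of 25 of the other members (16.0%), Nfe2l2 and Keap1 included. Whether the matches had a part in the levels was not tested.

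The inducible genes differed between mice of the same group, mostly in 1 direction. In saline, 10 of the 12 were higher in library 2 than in library 1, against 7667 of the 15167 tested genes. After treatment 12 of 12 were higher in library 2, against 7556 of the tested genes. Of the other 27 members, 20 in saline and 15 after treatment were higher in library 2. Their median absolute log2 difference between libraries of a group was 0.60 in saline and 0.57 after treatment, against 0.25 and 0.25 over all tested genes. For the other 27 members it was 0.17 and 0.20. Over the 41 genes, the highest level was in saline 1 for 1, in saline 2 for 10, in treated 1 for 13 and in treated 2 for 17. The lowest level was in saline 1 for 21, in saline 2 for 9, in treated 1 for 10 and in treated 2 for 1. Lung epithelial marker sums rank saline 2, saline 1, treated 2, treated 1 from low to high, an order that 4 members had and 1 (Slc7a11) had in reverse. The 4T1 epithelial markers summed to 2646.4, 3055.1, 2352.0 and 3445.4 CPM, also higher in library 2 of each group, as was the macrophage sum. Within that list the genes differed. Krt8, Krt18 and Krt19 were higher in library 2 of each group, Epcam and Cdh1 were lower, and Krt14 was lower in saline only. The part of any cell type in the result was not tested.

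Members could also be split by where their proteins act. The 5 mitochondrial proteins (Txn2, Txnrd2, Prdx3, Prdx5 and Sod2) had a median log2 fold change of 0.21, with 3 higher in both treated libraries (0.15 and again 3 with the gene length offset). The 5 secreted or secretory pathway proteins (Gpx3, Gpx7, Gpx8, Prdx4 and Sod3) had a median of 0.33, with 3 higher in both treated libraries, but a median of 0.03 and 2 higher with the offset. In neither set was any gene lower in both, and over all tested genes 27.4% were higher and 27.8% lower in both.

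Gene length moved with the difference between groups over the whole table, and 14 of the 41 genes are shorter than 2000 bases. Of the 2830 tested genes of that length, 47.9% were higher in both treated libraries and the median log2 fold change was 0.31. The 14 short members had a median of 0.38 with 10 higher in both, and the 27 longer members a median of 0.14 with 11 higher in both, against a median of −0.04 and 22.7% for longer genes. With a length offset in edgeR, the members' median was 0.10, against 0.02 for all genes. With that offset, 14 members (34.1%) were higher in both treated libraries, against 25.8% of all genes, and 0 were lower in both, against 24.7%. At an unadjusted p under 0.05, Gpx3, Prdx1, Sod1, Sod2, Sod3 and Mgst1 were higher with the offset (6 members, against 7.89% of all genes) and 0 members were lower (against 7.62%). With the offset the log2 fold change of Gpx1 was 0.23 in place of 0.52 and that of Txn1 0.10 in place of 0.40, while Sod1 had 0.46 in both fits and Sod3 had 1.08 in place of 1.11.

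**Figure D5:**
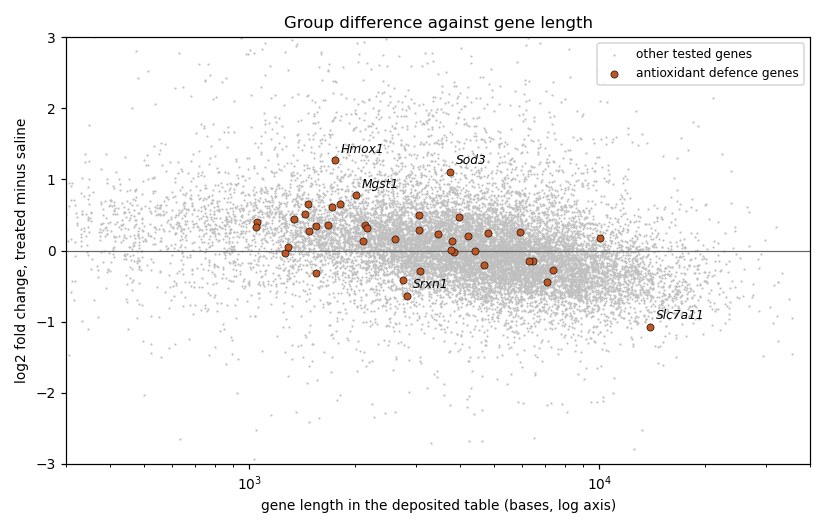
Log2 fold change (treated minus saline) against gene length in bases (log axis) for the tested genes (grey) and the 41 antioxidant defence genes (orange, 5 of them named); 175 genes, none of them a member, lie outside the axes. Short genes lie above 0 more often than long ones, and Slc7a11, at 13922 bases, is the longest member and has the lowest log2 fold change without a length offset.

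Leaving out 1 library at a time, 23 members were higher in both or the remaining treated libraries without saline 1 (41.2% of all genes), 28 without saline 2 (37.0%), 27 without treated 1 (36.8%) and 24 without treated 2 (42.3%). The members lower in treated libraries numbered 11 without saline 1 (39.1% of all genes) and 10 without treated 2 (39.4%), but 2 without saline 2 (36.9%) and 3 without treated 1 (37.5%). The count of lower members thus rested on which library was compared.

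Other genes of the pathway were taken from 4 lists, of which 70 of 78 genes were tested and 0 passed an adjusted p under 0.05. Over all tested genes, 27.4% were higher and 27.8% lower in both treated libraries, and the shares in each list are to be read against these. Of 12 further NRF2 regulators, 1 was higher (8.33%) and 6 were lower (50%) in both treated libraries, but with the gene length offset 3 were higher and 4 lower. Gsk3b, a kinase that marks NRF2 for degradation apart from KEAP1, was at 109 and 122 CPM in saline and at 61.3 and 66.7 CPM after treatment. The groups were well apart (log2 fold change −0.85 ± 0.14, adjusted p = 0.138 in edgeR and 0.0015 in DESeq2). Gsk3b is a long gene of 9831 bases, and its log2 fold change with the length offset was −0.57. Cul3, the scaffold of the KEAP1 ubiquitin ligase, and Bach1, a repressor at antioxidant response elements, had log2 fold changes of −0.48 and −0.43 without overlap. Rbx1, the RING subunit of that ligase, was higher in both treated libraries (0.44). Park7 and Sqstm1 had 0.12 and 0.01 and overlapped, and Sqstm1 was at 472 and 944 CPM in the treated libraries.

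Of 20 other NRF2 targets, 7 were higher (35.0%) and 3 lower (15.0%) in both treated libraries, the former a share near that of all genes, and the counts were the same with the offset. Aldh1a1, an aldehyde dehydrogenase, was at 35.9 and 16.7 CPM in saline and at 192 and 59.1 CPM after treatment (log2 fold change 2.25 ± 0.62, edgeR adjusted p = 0.155). Its order of libraries was that of the alveolar type 2 marker sum. Slc40a1, the iron exporter ferroportin, had 0.91 and the carbonyl reductase Cbr1 0.47. Txnip, which binds and inhibits thioredoxin, the glucuronate supplier Ugdh and the exporter Abcc4 were lower in both, with −0.45, −0.45 and −0.63.

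Of 31 other glutathione and thiol enzymes, 13 were higher (41.9%) and 3 lower (9.68%) in both treated libraries, and 10 and 5 with the offset. The monothiol glutaredoxins Glrx3 and Glrx5 had log2 fold changes of 0.43 and 0.50, and Gstt2 had 1.57 from levels of 1.64 to 8.81 CPM. Sesn3 (−0.63) and Txnrd3 (−0.64) were lower in both. With the length offset the values were −0.23 for Sesn3, a gene of 15269 bases, and −0.77 for Txnrd3. The metallothionein gene Mt2 overlapped (−0.80), at 8.03, 25.3, 6.79 and 12.3 CPM, with its highest level in saline 2.

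NADPH oxidases produce superoxide, and 7 of their 15 listed subunits passed the filter, which leaves out those too low to test. Of the 7 tested, 3 were higher (42.9%) and 0 lower in both treated libraries, against 27.4% and 27.8% of all tested genes, and 3 and 0 with the offset. Cyba, the membrane subunit p22phox, was at 212 and 203 CPM in saline and at 345 and 342 CPM after treatment, with libraries of a group almost level (log2 fold change 0.73 ± 0.13, adjusted p = 0.138 in edgeR and 0.00158 in DESeq2). It is a short gene of 1039 bases, and its log2 fold change with the length offset was 0.43. Ncf4, a cytosolic subunit, and Nox4, a catalytic subunit, had 0.41 and 0.65.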

How the data were processed

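Per the labels and the study's methods, poly(A) RNA was sequenced on an Illumina HiSeq instrument, and the authors aligned reads with HISAT2 (GRCm38 in the methods, mm39 in the submitters' processing notes). The strand setting and the counting tool are not given in the sources used here. The authors deposited a table of whole-number read counts per gene, not normalized, for 2 saline and 2 cmLumiOpto/PARPi libraries from different mice. Replicates were named by the labels' sample numbers.

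From the counts, groups were compared with edgeR 4.0.16 (R 4.3.3; TMM scaling, genes kept by filterByExpr at min.count 10, glmQLFit, glmQLFTest, Benjamini-Hochberg adjustment over 15167 genes, threshold 0.05). The standard error is the log2 fold change divided by the square root of F. Alternatives were DESeq2 1.42.0, RLE normalization, no filter, edgeR's legacy option off, a replicate block, a gene length offset (loess, span 0.5) and each library left out. Totals of 15263375 to 16755228 counts set the precision, and counting floors cover counting error only. Within a group, a chi-square per degree of freedom of 25.2 (saline) and 45.4 (treated) exceeded the value of counting error alone. The test was tried on simulated counts.

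The 41 genes and all lists were chosen with earlier results of these data known, and support for a direction is not drawn from that choice. Values in every library were given for Nfe2l2, Keap1, 7 inducible targets and, in each of the 10 role groups, the gene with the smallest unadjusted p in each direction; of each other list, up to 3 genes in each direction. Values of other members were added after they had been seen. The table's gene positions equalled those of GENCODE M21 (GRCm38) for 2.83% of 52073 shared genes, so table positions were not printed. Stretches of 100 bases shared between genes were counted in GENCODE M21 transcripts, and 11 members shared over 4% of theirs (4.58% to 44.7%), among them Sod2, Me1 and G6pdx. Promoters are from RefSeq. A planned split of members by selenocysteine was not run, as no protein sequences were used here.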

Additional observations from a re-analysis of the deposited data

How the results depend on the processing

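Against 0 genes and 0 members past an adjusted p of 0.05 in edgeR, DESeq2 called 965 genes (6.62%) and 4 members (9.76%). Without the filter on low counts, edgeR called 2000 genes (7.86%) and 8 members (19.5%). RLE normalization, the legacy option off and the gene length offset called 0 of either. Leaving out 1 library called 0 to 31 genes (31 without saline 1, 9 without saline 2, 2 without treated 1) and 0 members. The cause was not tested. A replicate block called 1822 genes (12.0%) and 6 members (14.6%), with Gpx1, Gpx3, Gpx4, Mgst1 and Sod3 higher and Slc7a11 lower. The block with the length offset called 835 genes (5.51%) and 3 members (7.32%), namely Gsr, Slc7a11 and Srxn1, all lower. With either block the share of members was near that of all genes. Same-numbered mice are different animals that share only a number, and their deviations from the group means correlated at a rho of 0.298 over genes. The members' median log2 fold change of 0.24 was 0.10 with the length offset, with or without the block, and 0.19 to 0.28 with 1 library left out. The count of members higher in both treated libraries was 21, and 22 with RLE normalization, 14 with the length offset and 23 to 28 with 1 library left out, the last chosen after seeing the data. In all 12 fits 29 members kept 1 sign, 23 higher and 6 lower. The fits reuse the same libraries, and the same count was not made over all tested genes, so it is not read as support. The sign turned for 7 members without saline 2 (among them Nqo1 and Srxn1), 8 without treated 1 and 7 with the length offset. With 2 libraries a group, differences within the spread between mice were not detectable.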
